A study of Homo sapiens with 12 samples.

Results

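The 8 genes described here encode channels and partners of the cardiac action potential: KCNH2, KCNQ1 and KCNJ2 (potassium channels), HCN4 (the pacemaker channel), CACNA1C and CACNA1G (calcium channels), GJA1 (connexin 43 of the gap junction) and ATP1B1 (a subunit of the sodium pump). They were chosen by name for their function, 8 of 78894 genes in the table, and not by their values. No gene of a voltage-gated sodium channel is among them. Counts were measured in 12 libraries of cardiomyocytes differentiated from WTC-mEGFP-ACTN2-cl85, a line of human induced pluripotent stem cells. In all groups this single clone bore an mEGFP tag at the end of the sarcomeric protein ACTN2, from 1 edited copy of the gene, and the cells had been enriched for cardiomyocytes in lactate medium. Each of 4 groups held 3 cultures treated for 48 h, with a DMSO vehicle (labelled 16 µM), with 10 nM endothelin-1, with 16 µM sacubitrilat, or with both compounds together. Endothelin-1, a peptide that constricts vessels, signals by Gq and makes heart muscle cells grow. Sacubitrilat blocks neprilysin, the enzyme that breaks down natriuretic peptides and can cleave endothelin-1. Each library came from an independent culture of the 1 clone, so the p-values cover the spread between cultures of that clone.

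The working heart cell fires by passing ions through these proteins in turn. Calcium entry through the L-type channel (CACNA1C) holds the plateau of the action potential, and the delayed rectifiers KCNH2 and KCNQ1 end it. The inward rectifier KCNJ2 holds the resting potential, HCN4 and the T-type channel CACNA1G drive pacing in nodal and immature cells, GJA1 joins neighbouring cells, and the sodium pump restores the gradients. Cardiomyocytes made from stem cells are known for immature electrophysiology, with automatic beating and a weak inward rectifier current.

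The libraries differed in total count along with treatment. Totals ran from 1268308 to 1953122 in the 6 single-compound libraries but from 80844 to 316932 in the other 6 libraries, a 10.1-fold difference of mean totals. The series names as primary its comparisons of endothelin-1 with vehicle and with the combination. In each of them a group of high total met one of low total, and treatment and total cannot be told apart. Summed totals differed 1.09-fold between endothelin-1 and sacubitrilat, and were 1.49-fold higher with vehicle than with the combination. Levels are given in CPM, counts scaled to the library total. The level that a count of 0 still allows (3 counts, counting error only) was 1.54 CPM at the highest total and 37.1 CPM at the lowest. For the 6 single-compound libraries a second line of the description names the other compound. Groups follow the titles and treatment labels, and under that other line the endothelin-1 and sacubitrilat values below would change places.

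All 10 cardiomyocyte markers of the list used were detected in every group. Their summed level was 17645 to 21337 CPM with vehicle, 19077 to 20047 with endothelin-1, 14359 to 14953 with sacubitrilat and 17784 to 34975 with both compounds. Fibroblast markers (8 genes) summed to 1794 to 5028, 6686 to 7551, 7049 to 7371 and 1994 to 4519 CPM in the same order. Smooth muscle markers (6 genes) summed to 584 to 2087, 3617 to 3669, 2799 to 2889.6 and 962 to 2301 CPM. With endothelin-1 against vehicle, 4 of these 6 were called higher and 0 lower. Of 10 cardiomyocyte markers 7 were higher and 1 lower, and of 8 fibroblast markers 4 and 1, beside 11% and 12.2% of all tested genes. Against sacubitrilat, 3 of 6 smooth muscle, 5 of 10 cardiomyocyte and 0 of 8 fibroblast markers were higher. In the same order 0, 0 and 2 were lower, where 6.44% of all tested genes were called higher and 4.78% lower. The part of these markers in the differences below was not tested. Endoderm and liver markers (9 genes) summed to 200.4 to 668, 56.7 to 89.6, 51.4 to 66.0 and 474 to 619 CPM. Endothelial markers (7 genes) summed to 12.4 to 29.3, 11.2 to 14.4, 9.73 to 12.5 and 20.5 to 45.8 CPM. CDH5, VWF and KDR were at 0 counts in the vehicle group, and these and ERG in the combined group. CDH5 and ERG were at 0 with endothelin-1, and all 7 were detected with sacubitrilat. In RNA of a whole culture, fewer cells of a type and less RNA per cell cannot be told apart.

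The 3 potassium channel members hold the signature of the pore. Their coding sequence around it is shown as an example of a feature that channel genes of this set hold and that the choice of the set did not use. It was read from the GENCODE v29 transcripts (GRCh38), 39 bases each. The capitals mark the last 3 codons of the selectivity filter, at codons 626 to 628 of KCNH2, 314 to 316 of KCNQ1 and 144 to 146 of KCNJ2.
KCNH2: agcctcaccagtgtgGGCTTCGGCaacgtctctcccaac
KCNQ1: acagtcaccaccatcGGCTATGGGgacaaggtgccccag
KCNJ2: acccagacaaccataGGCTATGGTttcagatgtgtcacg

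Across the 4 groups the 8 genes fell into 4 kinds. KCNH2, GJA1 and CACNA1C were lower in each vehicle and combined library than in any single-compound library. For CACNA1C the gap was narrow, with vehicle replicate 1 at 94.7 CPM and endothelin-1 replicate 1 at 95.4. ATP1B1 was higher in each endothelin-1 library than in any other library. The share of all tested genes whose libraries separate in these ways was not counted. HCN4 and CACNA1G had levels with vehicle that overlapped with those of each single compound, and KCNQ1 and KCNJ2 had at most 12 counts in any library. Of the 8 genes, 6 passed the filter on low counts and were tested, and KCNQ1 and KCNJ2 were not.

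**Figure D1:**
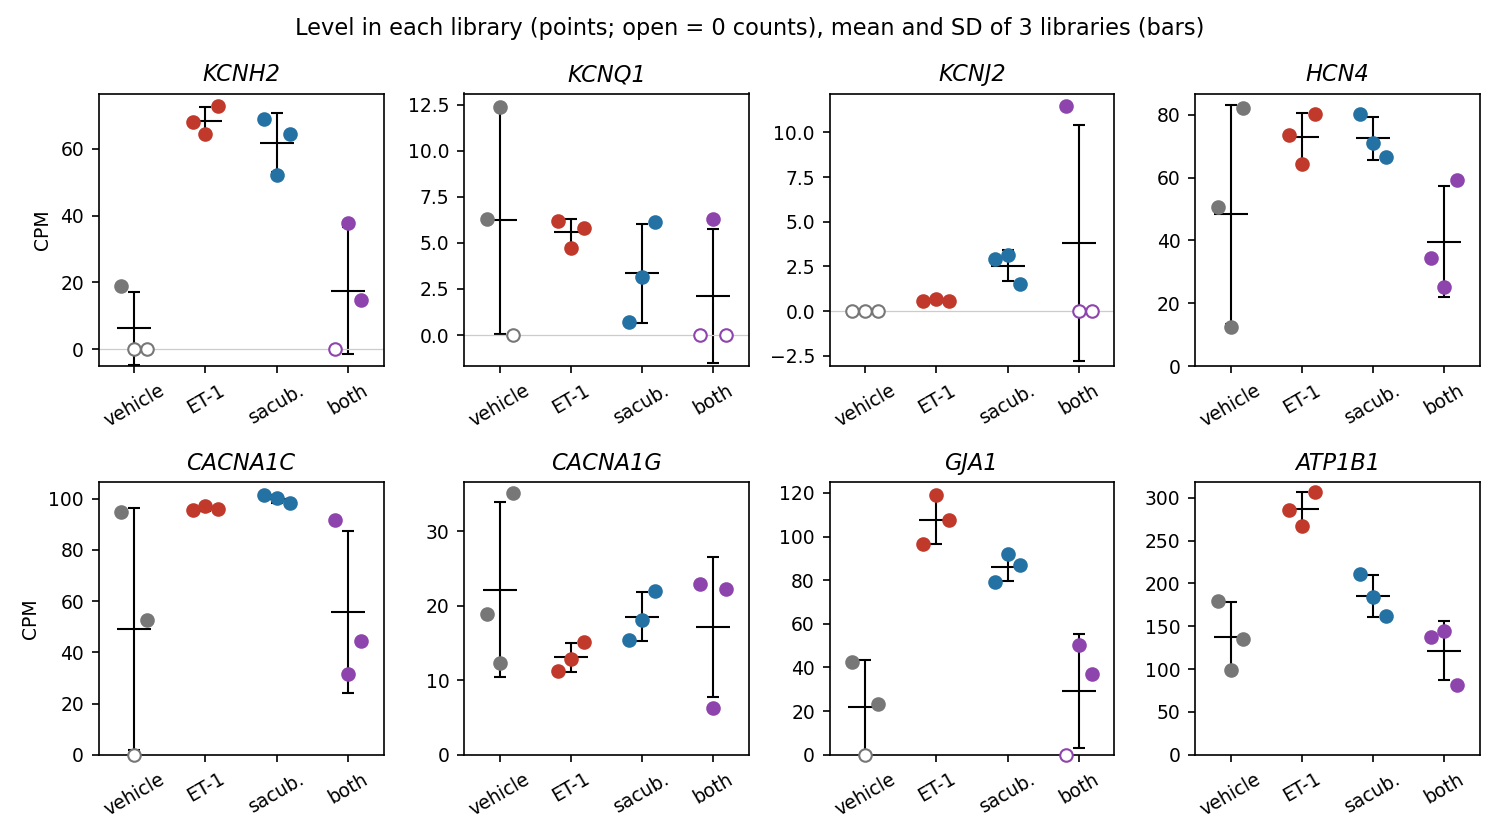
Level of each of the 8 genes in each library in CPM (points, open where the count was 0), with the mean and SD of 3 libraries, by group (ET-1, endothelin-1; sacub., sacubitrilat; both, both compounds). KCNH2, GJA1 and, narrowly, CACNA1C lie higher in all 6 single-compound libraries than in any vehicle or combined library. The 3 endothelin-1 libraries of ATP1B1 lie above all other libraries.

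KCNH2 (ENSG00000055118, chromosome 7, 150944961 to 150978315 on GRCh38, minus strand) encodes the hERG channel of the rapid delayed rectifier current. It stood at 18.9, 0 and 0 CPM in vehicle replicates 1 to 3 (6, 0 and 0 counts). It stood at 67.9, 64.5 and 72.7 CPM with endothelin-1, at 69.04, 52.04 and 64.5 with sacubitrilat, and at 0, 37.8 and 14.8 with both compounds. The vehicle and combined groups overlapped each other and not the single-compound groups, which overlapped as well. At the rate of the endothelin-1 libraries, the vehicle libraries would have held 38.96 KCNH2 counts in all, and they held 6. KCNH2 was higher with endothelin-1 than with vehicle by 2.72 ± 0.50 on the log2 scale (6.57-fold, SE, n = 3 per group, edgeR adjusted p = 8.12e-05). Without vehicle replicate 1, which held all 6 counts, the 2 other vehicle libraries were at 0, and the level with endothelin-1 was at least 5.75-fold higher than a floor of 3 counts over both. It was also higher with sacubitrilat than with vehicle (2.46 ± 0.52, edgeR adjusted p = 5.88e-04), and lower under both compounds than with endothelin-1 (-1.74 ± 0.49, edgeR adjusted p = 0.00581). Combined replicate 2 held 6 of the 8 counts with both compounds, and without it the last difference was -3.15. Between the like-total libraries of endothelin-1 and sacubitrilat the difference was 0.25 with a 95% interval of -0.05 to 0.56, and it did not pass (edgeR adjusted p = 0.323).

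The bases before the most upstream start that RefSeq lists for KCNH2 (GRCh38.p14, chr7:150978322-150978471, minus strand, 150 bases ending at the base before the start, in no exon of GENCODE v29) are shown because this gene had the largest fold changes of the tested members against vehicle. The capitals mark GGGCGG, the core of an Sp1 site.
KCNH2 upstream: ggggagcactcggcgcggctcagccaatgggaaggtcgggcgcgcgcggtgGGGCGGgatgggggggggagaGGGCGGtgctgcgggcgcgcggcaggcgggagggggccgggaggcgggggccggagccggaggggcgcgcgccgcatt
The stretch was 82.7% G and C and held 2 matches to GGGCGG, a motif found on either strand in 42.5% of the 250-base windows before 34943 annotated starts. The AP-1 motif TGANTCA and the NFAT motif TGGAAA had no match on either strand in the 250 bases before this start. The GATA factor motif GATAAG and the NKX2-5 motif TNAAGTG had none there. The TATA box, searched as TATAAA, had none, and neither had the motif of MEF2 nor the CArG box of SRF. RefSeq lists 5 starts for KCNH2, and the counts do not tell which were used.

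KCNQ1 (ENSG00000053918, chromosome 11, 2444684 to 2849110) encodes the slow delayed rectifier. It had 2, 1 and 0 counts with vehicle, 11, 7 and 10 with endothelin-1, 1, 4 and 12 with sacubitrilat, and 0, 1 and 0 with both compounds. Summed over groups the levels were 5.28 CPM (exact 95% Poisson interval 1.09 to 15.4), 5.63 (3.74 to 8.13), 3.71 (2.16 to 5.94) and 2.62 (0.0664 to 14.6). These intervals, which cover counting error only, overlap, and no difference in KCNQ1 was detectable at this depth.

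KCNJ2 (ENSG00000123700, chromosome 17, 70168673 to 70180048) encodes an inward rectifier. It had 0 counts in each vehicle library, 1 count in each endothelin-1 library, 4, 4 and 3 counts with sacubitrilat, and 1, 0 and 0 with both compounds. The 3 endothelin-1 counts and the 11 sacubitrilat counts gave a ratio of 0.251 (95% counting interval 0.0450 to 0.951). KCNJ2 was below 4 CPM in each of the 6 deep libraries, and its 0 in the vehicle group allows up to 5.28 CPM over that group.

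HCN4 (ENSG00000138622, chromosome 15, 73319859 to 73369264, minus strand) encodes the main channel of the pacemaker current. It stood at 50.5, 12.4 and 82.04 CPM with vehicle, at 73.5, 64.5 and 80.3 with endothelin-1, at 80.1, 70.96 and 66.6 with sacubitrilat, and at 34.4, 25.2 and 59.3 with both compounds. All 3 combined libraries lay below all 6 single-compound libraries, and the vehicle libraries spanned the whole range. HCN4 did not pass between vehicle and endothelin-1 (0.45 ± 0.30, edgeR adjusted p = 0.284) or between endothelin-1 and both compounds (-0.93 ± 0.39, edgeR adjusted p = 0.0633). The second difference passed without vehicle replicate 1, 2 or 3 or combined replicate 3, with edgeR adjusted p of 0.0123, 0.0181, 0.0286 and 0.0258, and with no filter on low counts (edgeR adjusted p = 0.00323). Without combined replicate 3 its size was -1.57. Endothelin-1 and sacubitrilat differed by 0.14 with a 95% interval of -0.14 to 0.42.

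CACNA1C (ENSG00000151067, chromosome 12, 1970786 to 2697950) encodes the pore of the L-type calcium channel. The 6 single-compound libraries were tightly grouped, at 95.4, 97.03 and 95.96 CPM with endothelin-1 and 101.4, 100.1 and 98.3 with sacubitrilat. Vehicle gave 94.7, 0 and 52.7 CPM (30, 0 and 9 counts) and both compounds 91.7, 31.5 and 44.5 (8, 5 and 6 counts). Vehicle and endothelin-1 did not differ beyond the spread (0.53 ± 0.29, edgeR adjusted p = 0.194), but without vehicle replicate 1 the difference was 1.74 and passed (edgeR adjusted p = 0.00326). Both compounds were below endothelin-1 by -0.98 ± 0.38 (edgeR adjusted p = 0.0428), a call that was lost under 11 of 20 alternatives, among them the replicate block (edgeR adjusted p = 0.0564) and limma-voom (adjusted p = 0.123). It was also lost with a mean of at least 50 counts (-0.56, edgeR adjusted p = 0.282), without any 1 endothelin-1 or sacubitrilat library (edgeR adjusted p from 0.0797 to 0.0914) and without combined replicate 2 or 3 (0.159 and 0.0786). In CPM each endothelin-1 library lay below each sacubitrilat library, and the ratio of the summed levels was 0.964. The scaled edgeR fit gave the opposite sign, higher with endothelin-1 by 0.06 with a 95% interval of -0.21 to 0.34. It did not pass (edgeR adjusted p = 0.848), so no direction between these groups is claimed for CACNA1C.

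CACNA1G (ENSG00000006283, chromosome 17, 50561068 to 50627474) encodes the pore of a T-type calcium channel. It stood at 18.9, 12.4 and 35.2 CPM with vehicle, 11.2, 12.9 and 15.1 with endothelin-1, 15.4, 18.1 and 22.02 with sacubitrilat, and 22.9, 6.30 and 22.2 with both compounds. Its endothelin-1 libraries were all below its sacubitrilat libraries, yet at -0.42 ± 0.24 this was not called (edgeR adjusted p = 0.304). It was the 1 tested member whose level was lower with endothelin-1 than with vehicle (-0.77 ± 0.46), and this did not pass either (edgeR adjusted p = 0.237).

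GJA1 (ENSG00000152661, chromosome 6, 121435577 to 121449727) encodes connexin 43, the main gap junction protein of working myocardium, which fibroblasts also make. It stood at 42.6, 0 and 23.4 CPM with vehicle, 96.5, 119 and 107.6 with endothelin-1, 79.3, 92.2 and 87.04 with sacubitrilat, and 0, 50.4 and 37.05 with both compounds. The 3 endothelin-1 libraries were above the 3 sacubitrilat libraries, and both groups were above all vehicle and combined libraries. GJA1 was higher with endothelin-1 than with vehicle by 1.79 ± 0.36 (3.46-fold, edgeR adjusted p = 2.40e-04), higher with sacubitrilat than with vehicle by 1.36 ± 0.38 (edgeR adjusted p = 0.00850) and lower under both compounds than with endothelin-1 by -1.69 ± 0.41 (edgeR adjusted p = 0.00169). Without vehicle replicate 1 the first 2 differences were 3.06 and 2.63, and without combined replicate 2 the third was -2.49. Fibroblast markers summed to 1794 to 5028 CPM with vehicle, 6686 to 7551 with endothelin-1, 7049 to 7371 with sacubitrilat and 1994 to 4519 with both, and their part in the GJA1 differences was not tested.

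At like totals, GJA1 was 1.35-fold higher with endothelin-1 than with sacubitrilat (0.43 ± 0.14 on the log2 scale, n = 3 per group, edgeR adjusted p = 0.0328). The size held under 20 alternatives (0.37 to 0.51), but the call was lost under 8 of them. These were DESeq2 (adjusted p = 0.0923), limma-voom (adjusted p = 0.442), no filter (edgeR adjusted p = 0.0570), the replicate block (edgeR adjusted p = 0.0608), and the fits without endothelin-1 replicate 2 or 3 or sacubitrilat replicate 1 or 3 (edgeR adjusted p of 0.151, 0.0925, 0.139 and 0.101). The cardiomyocyte marker sum was 19077 to 20047 CPM with endothelin-1 and 14359 to 14953 with sacubitrilat. Of its 10 markers 5 were called higher and 0 lower, beside 6.44% and 4.78% of all tested genes. The part of these markers in this GJA1 difference was not tested.

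The window before the GJA1 start of RefSeq held 1 match to the AP-1 motif TGANTCA, 48 to 42 bases before the start, and none to the other 7 motifs. AP-1 motifs were found in 6.59% of all such windows. The 30 bases around it (GRCh38.p14, chr6:121435586-121435615, plus strand) are shown with the match in capitals because GJA1 differed between the compounds. A part of AP-1 in that difference was not tested. In GENCODE v29 the match lies within a transcribed exon, since that annotation starts the gene further upstream.
GJA1 AP-1 match: cctcctcccagtTGAGTCAgtggcttgaaa

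ATP1B1 (ENSG00000143153, chromosome 1, 169105697 to 169132722) encodes the beta subunit that brings the sodium pump to the membrane. It stood at 179.8, 98.96 and 135 CPM with vehicle, 286, 267 and 307 with endothelin-1, 211, 184 and 162 with sacubitrilat, and 137, 145 and 81.5 with both compounds. The endothelin-1 libraries were above all 9 others, and the vehicle libraries overlapped with those of sacubitrilat and of both compounds. ATP1B1 was 1.69-fold higher with endothelin-1 than with sacubitrilat (0.75 ± 0.12 on the log2 scale, n = 3 per group, edgeR adjusted p = 1.62e-05), at totals that differed 1.09-fold. The difference was 0.65 to 0.85 under 21 alternatives and passed under 20 of them. It was 0.78 with every library thinned to 80000 counts, where the test did not pass (edgeR adjusted p = 0.538). The cardiomyocyte marker sum was 14359 to 14953 CPM with sacubitrilat and 19077 to 20047 with endothelin-1, and its part in the ATP1B1 difference was not tested.

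ATP1B1 was also higher with endothelin-1 than with vehicle (0.94 ± 0.20, 1.92-fold, edgeR adjusted p = 6.72e-04) and lower under both compounds than with endothelin-1 (-1.29 ± 0.25, edgeR adjusted p = 1.14e-04). The first call was lost after thinning (0.85, edgeR adjusted p = 0.105) and its size was 1.54 without vehicle replicate 1, and the second held under all 21 alternatives. Sacubitrilat against vehicle gave 0.18 with a 95% interval of -0.25 to 0.62 (edgeR adjusted p = 0.582). Without vehicle replicate 1 it was 0.79 and did not pass either (edgeR adjusted p = 0.0621).

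**Figure D2:**
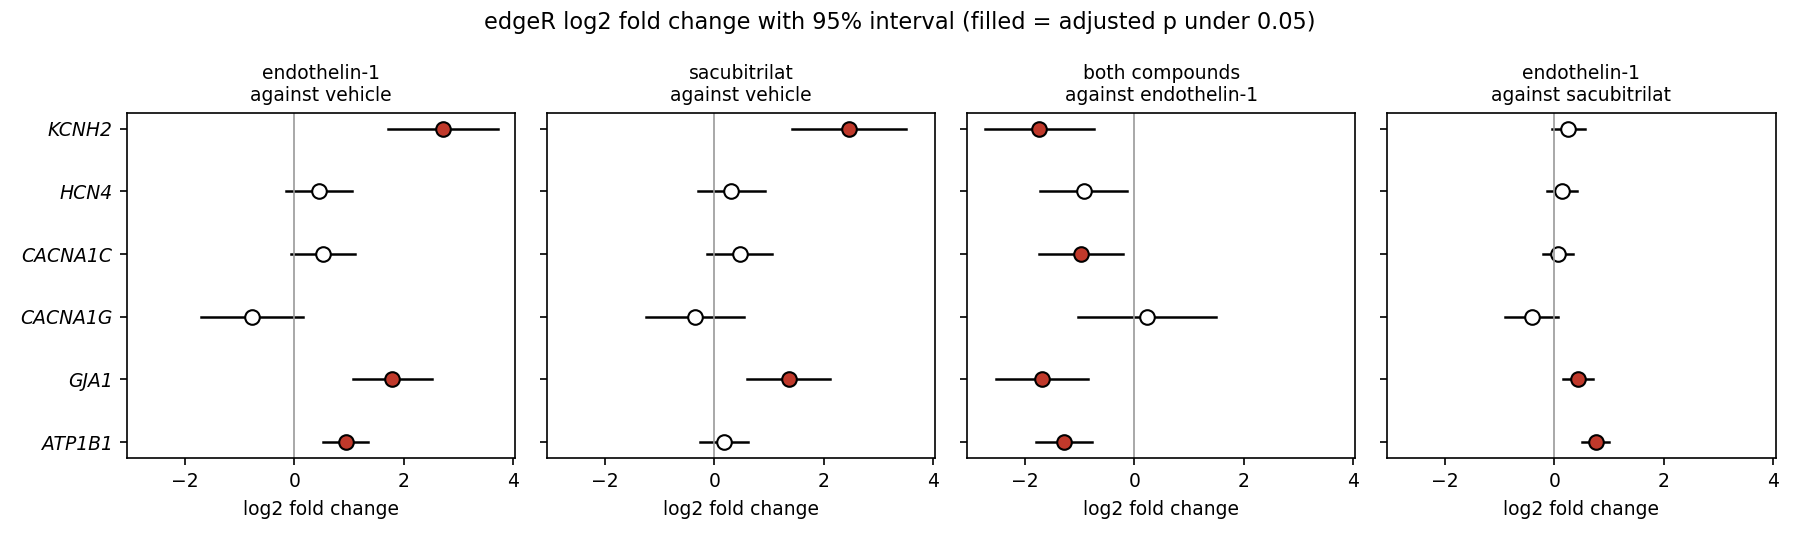
Log2 fold change of the 6 tested genes in 4 comparisons from edgeR (points) with 95% intervals (lines), filled where the adjusted p was under 0.05. KCNH2 and GJA1 were past the threshold in all 3 plotted comparisons that set high against low totals, and ATP1B1 and GJA1 in the comparison of endothelin-1 with sacubitrilat, where totals differed 1.09-fold.

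In all, endothelin-1 against vehicle gave 3 of the 6 tested genes called higher and 0 lower, where edgeR called 23.2% of 11203 tested genes, with 11% called higher and 12.2% lower. With both compounds against endothelin-1, 4 of 6 were lower and 0 higher, against 34.4% called in all, 16.6% higher and 17.8% lower. Sacubitrilat against vehicle gave 2 of 6 higher (19.9% called in all, 8.68% higher, 11.2% lower). Both compounds against sacubitrilat gave 2 of 6 lower (35.0% in all, 17.2% higher, 17.8% lower), KCNH2 at -1.48 ± 0.51 and GJA1 at -1.25 ± 0.44 (edgeR adjusted p of 0.0217 and 0.0241, n = 3 per group). Each of these 2 calls was lost under 6 of 20 alternatives. For KCNH2 they were the filter at a mean of 50 counts, the fit without libraries under 100000 counts, and the fits without sacubitrilat replicate 1 or 3 or combined replicate 1 or 3 (edgeR adjusted p from 0.0526 to 0.116). For GJA1 they were the same 2 filters and the fits without endothelin-1 replicate 3, sacubitrilat replicate 2 or 3 or combined replicate 1 (edgeR adjusted p from 0.0502 to 0.160). Without combined replicate 2 the values were -2.90 for KCNH2 and -2.06 for GJA1. Endothelin-1 against sacubitrilat gave 2 of 6 higher and 0 lower (11.2% in all, 6.44% higher, 4.78% lower). The interaction, which asks whether the endothelin-1 effect differs with sacubitrilat, gave 5 of 6 lower (46.1% in all, 20.1% higher, 26.0% lower). These comparisons share groups, so their calls are not independent of each other. The median log2 difference of the 6 genes was 0.73 with endothelin-1 against vehicle, beside 0.10 over all tested genes, and -1.13 with both compounds against endothelin-1, beside -0.23.

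Both compounds against vehicle, at low totals that differed 1.49-fold, called 0 of the 6 genes with edgeR (0 at an unadjusted p under 0.05, 0 with DESeq2 and 0 with limma-voom), where 0.179% of tested genes were called, 0.0803% higher and 0.0982% lower. The 95% intervals were wide: -0.83 to 2.78 for KCNH2, -1.20 to 1.41 for GJA1 and -1.01 to 0.32 for ATP1B1, and differences of sizes within them could not be told from 0.

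Averaging over the other compound puts high and low totals on both sides. For endothelin-1 averaged over sacubitrilat edgeR called 0 of 6 (0 at an unadjusted p under 0.05, 0 with DESeq2 and 0 with limma-voom, 1.83% of tested genes called, 1.01% higher and 0.821% lower). The values were 0.62 ± 0.45 for KCNH2, 0.27 ± 0.33 for GJA1 and 0.20 ± 0.18 for ATP1B1. For sacubitrilat averaged over endothelin-1 edgeR also called 0 of 6 (1 at an unadjusted p under 0.05, 0 with DESeq2 and 0 with limma-voom, 0.259% of tested genes called, 0.0536% higher and 0.205% lower). That 1 gene was ATP1B1, lower by -0.55 ± 0.17 (edgeR adjusted p = 0.179), and it passed without the 2 libraries under 100000 counts (-0.67, edgeR adjusted p = 0.0231) and without vehicle replicate 2 (-0.68, edgeR adjusted p = 0.0137).

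Related genes were read from 10 lists of channels, their partners and their regulators and from 1 list of overlapping or antisense genes. Besides the 8 members these lists hold 131 genes, of which 63 passed the filter and were tested. Between endothelin-1 and sacubitrilat at like totals, 12 of the 63 were higher with endothelin-1 and 4 lower, beside 6.44% and 4.78% of all tested genes. Against vehicle, 15 of the 63 were higher and 8 lower with endothelin-1, beside 11% and 12.2% of all tested genes. With both compounds against endothelin-1, 7 were higher and 17 lower, beside 16.6% and 17.8%.

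The sodium-calcium exchanger SLC8A1, which removes calcium after each beat, was higher with endothelin-1 than with sacubitrilat by 0.45 ± 0.11 and lower under both compounds than with endothelin-1 by -3.56 ± 0.41 (7 counts in all combined libraries). Of the 10 tested pump and exchanger genes, ATP1B1 included, 3 were higher and 0 lower with endothelin-1 than with sacubitrilat. Of all tested genes 6.44% were higher and 4.78% lower. The median of the 10 was 0.26, beside -0.01 over all tested genes.

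Of 8 tested potassium channel pore genes, 1 was higher and 2 lower with endothelin-1 than with sacubitrilat, beside 6.44% and 4.78% of all tested genes. KCNN2, a calcium-activated small-conductance channel, was higher with endothelin-1 than with sacubitrilat (39.6 ± 7.39 against 18.9 ± 4.05 CPM, SD, n = 3, 1.22 ± 0.24 on the log2 scale, edgeR adjusted p = 4.02e-04). KCNJ3, a subunit of the acetylcholine-gated channel of atrial and nodal cells, was lower (10.2 ± 3.01 against 21.8 ± 2.02 CPM, -0.96 ± 0.24), and so was KCNMA1, the large-conductance calcium-activated channel (9.07 ± 0.395 against 20.2 ± 5.85 CPM, -1.06 ± 0.25). Against vehicle 2 of the 8 were higher and 1 lower with endothelin-1, beside 11% and 12.2% of all tested genes. With both compounds against endothelin-1, 1 was higher and 2 lower, beside 16.6% and 17.8%. KCNA5, the atrial ultrarapid rectifier, was higher with endothelin-1 than with vehicle by 2.18 ± 0.59 and lower with both than with endothelin-1 by -3.56 ± 0.91, from 4, 157 and 1 counts in the vehicle, endothelin-1 and combined groups. It was also higher with sacubitrilat than with vehicle (1.75 ± 0.63, edgeR adjusted p = 0.0427). These KCNA5 comparisons set high against low totals. Of 2 tested auxiliary subunit genes, KCNIP2, which partners the transient outward channel, was lower under both compounds than with endothelin-1 by -2.94 ± 0.99, from 1 and 102 counts.

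Of 14 sodium channel and partner genes 2 passed the filter. FGF13, which binds sodium channels, was at 0 in the combined libraries against 64 counts with endothelin-1. Set against a floor of 3 counts over the combined group, this was at least 1.63-fold lower.

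Among 9 tested calcium channel genes, 0 were called in either direction between endothelin-1 and sacubitrilat, where edgeR called 11.2% of all tested genes. Against vehicle 3 were lower with endothelin-1 and 0 higher, beside 12.2% lower and 11% higher of all tested genes: the L-type pore gene CACNA1D (-1.44 ± 0.31, edgeR adjusted p = 6.39e-04), the beta subunit gene CACNB3 and the gamma subunit gene CACNG8 (-1.56 ± 0.46). The same 3 were lower with sacubitrilat than with vehicle (-1.08 ± 0.30, -0.89 ± 0.26 and -1.87 ± 0.48) and 0 higher. Of all tested genes 11.2% were lower and 8.68% higher there. Both comparisons set high against low totals. With both compounds against endothelin-1, CACNA1D and CACNB4 were higher and CACNA1C was the 1 lower, beside 16.6% and 17.8% of all tested genes. Of 4 tested genes in the pacemaker list, HCN2 was higher with both compounds than with sacubitrilat by 2.39 ± 0.84, from 6 and 14 counts, and no other was called in a pairwise comparison.

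The genes around connexin 43 were measured in 2 lists. Of 4 tested gap junction genes, GJA3 was higher with endothelin-1 than with sacubitrilat by 0.93 ± 0.22 (27.3 ± 5.14 against 15.9 ± 2.79 CPM, SD, n = 3). GJC1, which encodes connexin 45 of nodal and immature cells, was lower with endothelin-1 than with vehicle by -1.08 ± 0.26, opposite in sign to GJA1. TJP1, which binds the tail of connexin 43, was lower under both compounds than with endothelin-1 by -1.59 ± 0.36. Of 12 tested genes of the intercalated disc, the junction that holds cardiomyocytes together, 7 were higher and 0 lower with endothelin-1 than with vehicle, beside 11% and 12.2% of all tested genes. Under both compounds 0 were higher and 6 lower than with endothelin-1, beside 16.6% and 17.8%. With sacubitrilat against vehicle 5 were higher and 0 lower, beside 8.68% and 11.2%. Each of these comparisons sets high against low totals. Between endothelin-1 and sacubitrilat, at like totals, 3 of the 12 were higher and 1 lower, beside 6.44% and 4.78%. Their median there was 0.08, beside -0.01 over all tested genes. N-cadherin (CDH2) was higher with endothelin-1 than with vehicle by 1.04 ± 0.21 and lower under both compounds than with endothelin-1 by -2.27 ± 0.29, and plakophilin (PKP2) was higher with endothelin-1 than with sacubitrilat by 0.42 ± 0.11. These lists were chosen with earlier results of these data known and are described by their counts alone.

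**Figure D3:**
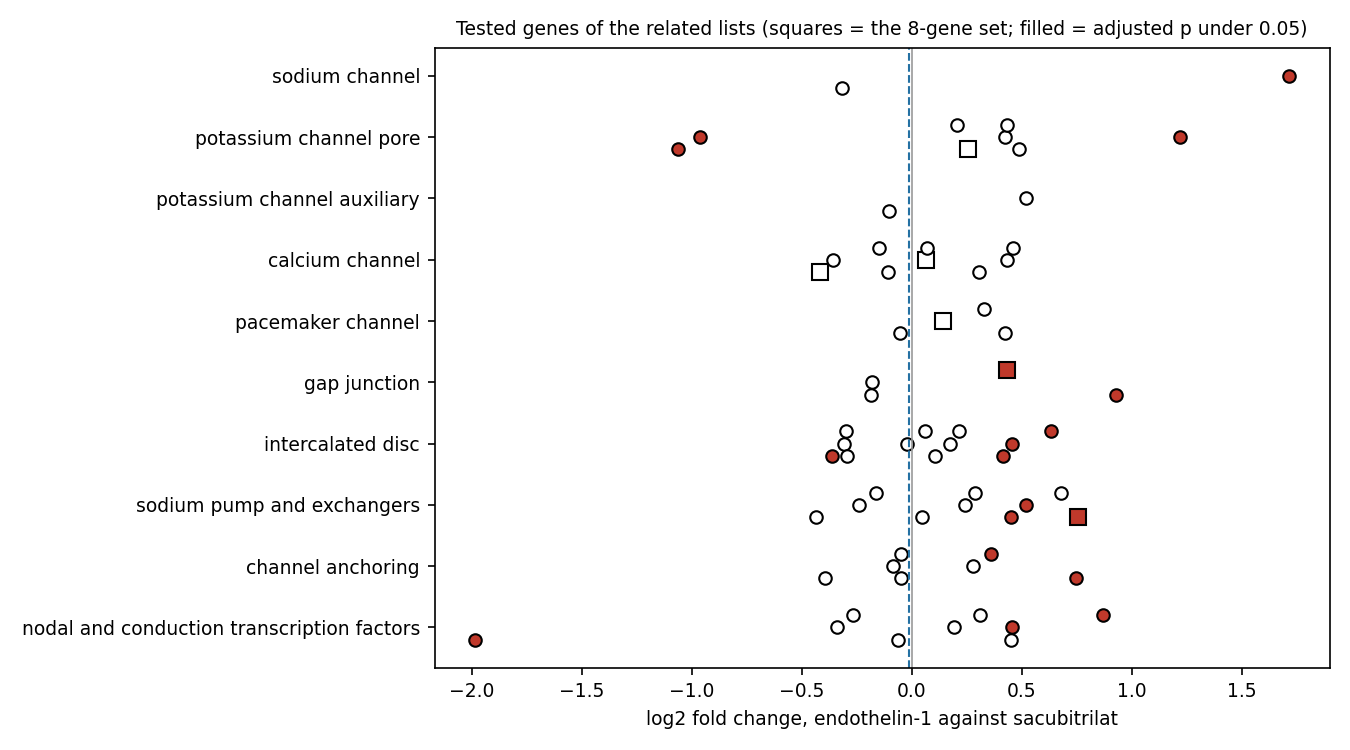
Log2 fold change between endothelin-1 and sacubitrilat for each tested gene of 10 related lists, with the 6 tested members as squares and genes with an edgeR adjusted p under 0.05 filled. The dashed line marks the median of all tested genes, -0.01. Of 9 tested calcium channel genes 0 are filled, where 11.2% of all tested genes were called.

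Of 9 tested transcription factors of nodal and conduction cells, 2 were higher and 1 lower with endothelin-1 than with sacubitrilat, beside 6.44% and 4.78% of all tested genes. TBX18, a factor of the sinus node head that epicardial cells also make, was lower with endothelin-1 than with sacubitrilat by -1.98 ± 0.19 (19.0 ± 1.84 against 80.7 ± 9.61 CPM, SD, n = 3, edgeR adjusted p = 3.54e-10). TBX3, a repressor of working-muscle genes in nodal cells, was higher by 0.87 ± 0.25, and NKX2-5, a factor of working cardiomyocytes, by 0.46 ± 0.14. Epicardial markers (6 genes) summed to 26.1 to 40.03 CPM with endothelin-1 and 86.7 to 99.3 with sacubitrilat. Their part in the TBX18 difference was not tested.

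For each tested member the genes with the nearest profile over the 12 libraries were listed, by the root mean square difference of centred log2 CPM among 6460 or 6461 genes with a mean of at least 20 counts. ATP1B1 was nearest to MT-ND3, INHBA and DMD (0.20, 0.21 and 0.21, where the median gene was at 0.75). GJA1 was nearest to MAN1A2, PIAS1 and ARL2BP (0.26, 0.40 and 0.43, median 1.76). KCNH2 was nearest to CTPS1, DENND4B and RAB2B (0.49, 0.50 and 0.58, median 1.85). HCN4 was nearest to AK4, BTBD1 and TCF3 (0.20 to 0.23), CACNA1C to ASB2, CCNL2 and SCRN2 (0.29 each), and CACNA1G to RCSD1, BRAF and KATNBL1 (0.30 to 0.31). All these profiles share the unequal totals of the libraries.

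**Figure D4:**
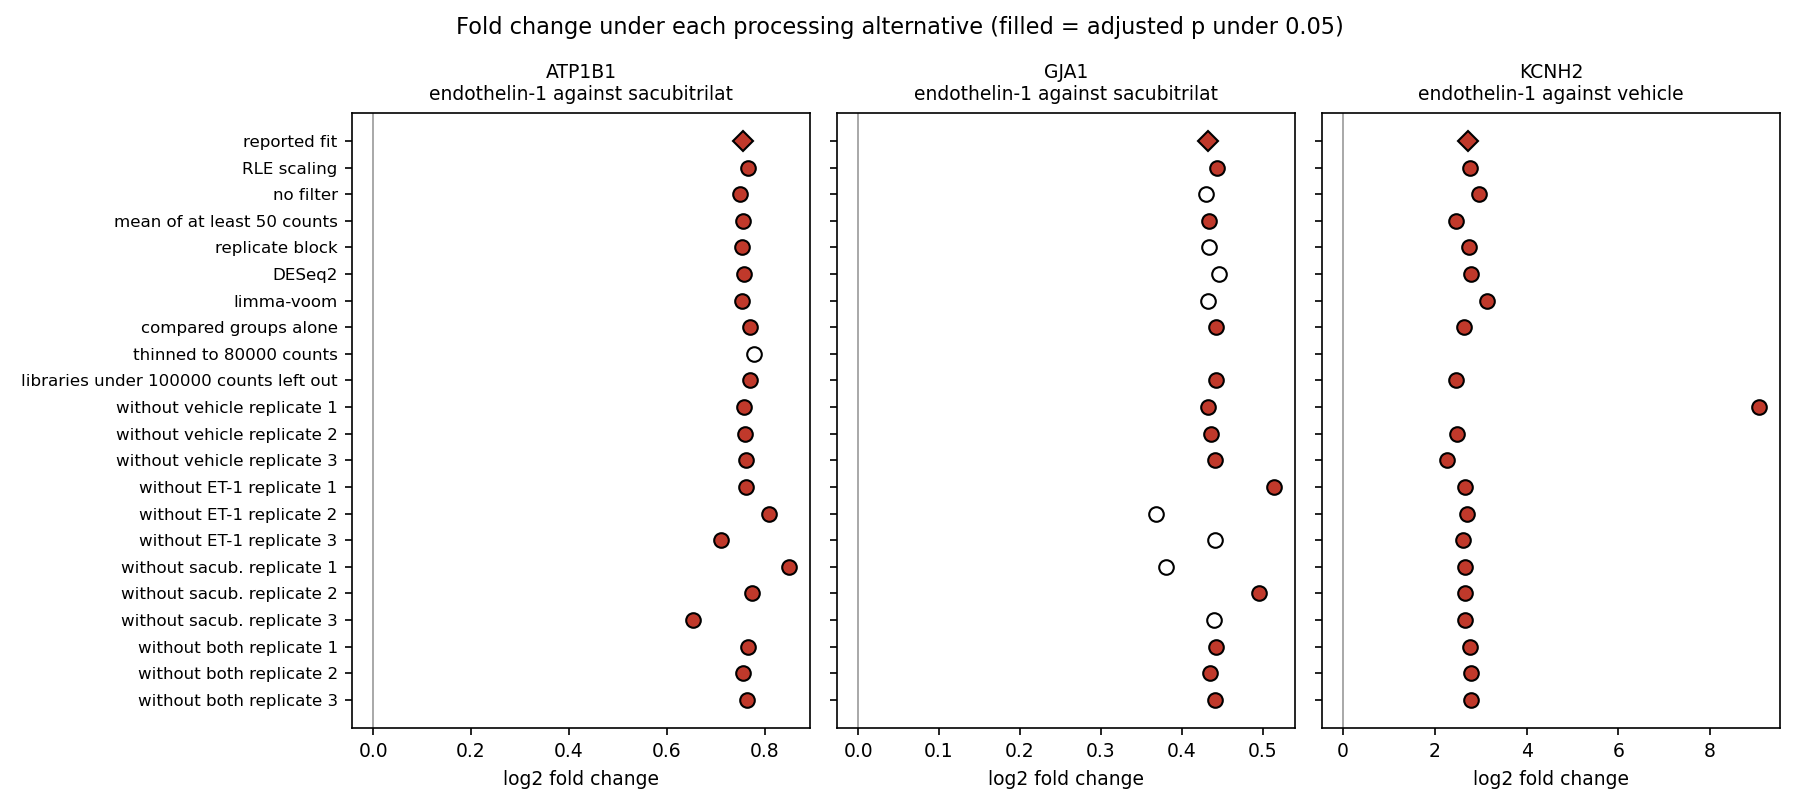
Log2 fold change of ATP1B1 and GJA1 between endothelin-1 and sacubitrilat, and of KCNH2 between endothelin-1 and vehicle, in the reported fit (diamond) and under each processing alternative that gave a value (circles), filled where the adjusted p was under 0.05. The ATP1B1 values run from 0.65 to 0.85 and the GJA1 values from 0.37 to 0.51, and the KCNH2 point at 9.06 is the fit without vehicle replicate 1, where no KCNH2 count remained in the vehicle group.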

How the data were processed

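Complementary DNA was primed with poly(dT) oligonucleotides holding a molecular identifier and sequenced from the 3′ end in stranded libraries, per the labels' protocols. The submitters' processing notes name fastp 0.24.0 for trimming, featureCounts for counting and the build GRCh38. For the aligner, annotation release, strand setting and use of identifiers, the entry is: not given in the sources used here. Reads of overlapping genes therefore cannot be told apart. The deposited table gives the authors' estimated counts per gene, some with fractions, and the authors' CPM, which equal count over library total. Of 78986 features, 92 spike-in sequences at 0 counts were left out. Library totals ran from 80844 to 1953122, and intervals and floors cover counting error only.

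Counts were rounded. All 12 libraries entered 1 edgeR 4.0.16 quasi-likelihood fit with group as its sole term (R 4.3.3, TMM, filterByExpr, 11203 genes), with Benjamini-Hochberg adjustment over the tested genes and a threshold of 0.05. The SE is the size of the log2 fold change, as shrunken by edgeR, over the square root of F. Named genes were the 8 members, up to 4 called genes per related list and comparison by adjusted p, and the 3 nearest profiles (log2 CPM, prior count of 2). KCNQ1OT1 was named for its overlap after its values were seen. Members and lists were chosen with earlier results of these data known. Some results that this rule names are not reported here. Promoters came from RefSeq, where 6 of 8 members matched and KCNQ1 and CACNA1G did not.

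The alternatives were another scaling (RLE), other filters (none, or a mean of 50 counts), other tests (DESeq2 1.42.0 and limma-voom 3.58.1), the compared groups alone, a replicate block, thinning to 80000 counts, leaving out libraries under 100000 counts, and leaving out each library. Replicate numbers carry the tag batch in the labels. Among 18 pairs of libraries that share a number, the correlation of their deviations from the group means lay between -0.146 and 0.0396, with 0 over 0.1, so the numbers were not taken to pair them. The tests were checked on simulated counts, and figures drawn with matplotlib 3.10.9.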

Additional observations from a re-analysis of the deposited data

Results flagged for a closer look

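For 5 of the 6 tested genes the endothelin-1 effect differed between cultures with and without sacubitrilat by the interaction test, where edgeR called 46.1% of all tested genes. Of all tested genes 20.1% were called higher and 26.0% lower. The effect with sacubitrilat minus that without was -4.20 ± 0.71 on the log2 scale for KCNH2, -3.05 ± 0.56 for GJA1, -1.47 ± 0.33 for ATP1B1, -1.44 ± 0.48 for CACNA1C and -1.24 ± 0.50 for HCN4 (3 cultures per group; the edgeR adjusted p values were 9.36e-06, 3.10e-05, 4.84e-04, 0.0139 and 0.0400). CACNA1G gave 0.59 ± 0.77 (edgeR adjusted p = 0.551). The interaction sets the 6 libraries of low total against the 6 of high total, and the total and the interaction cannot be told apart. Without vehicle replicate 1 the values were -10.8 for KCNH2, with no vehicle count left, -4.56 for GJA1, -2.31 for ATP1B1 and -2.90 for CACNA1C, and without combined replicate 3 the HCN4 value was -1.94. The CACNA1C call was lost with a mean of at least 50 counts (-0.76, edgeR adjusted p = 0.224). The HCN4 call was lost under 10 of 19 alternatives, with an adjusted p of up to 0.362.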

How the results depend on the processing

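Of 1003 alternative values for single genes, 904 kept their direction and side of the threshold, 44 fell below it, 24 passed it and 31 changed sign, none of these 31 from a called value. The cause of a change was not tested except where fewer counts or genes entered the fit. Thinning every library to 80000 counts left 1830 tested genes, with ATP1B1 the sole member tested, and a mean of at least 50 counts left 2969.

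Of members called, endothelin-1 against vehicle went from 3 to 0 when thinned, both compounds against endothelin-1 from 4 to 1 when thinned, and sacubitrilat against vehicle from 2 to 0 when thinned. Both compounds against sacubitrilat went from 2 to 5 with no filter, 0 at a mean of 50, 0 when thinned and 1 without libraries under 100000 counts. Endothelin-1 against sacubitrilat went from 2 to 1 with no filter, the replicate block, DESeq2 and limma-voom, and to 0 when thinned. The interaction went from 5 to 3 at a mean of 50 and 1 when thinned, and averaged sacubitrilat from 0 to 1 without libraries under 100000 counts.

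Of all genes called, endothelin-1 against vehicle went from 2596 to 992 at a mean of 50 and 458 when thinned, both compounds against endothelin-1 from 3854 to 1349 and 800, sacubitrilat against vehicle from 2228 to 792 and 438, both compounds against sacubitrilat from 3925 to 1351 and 803, and the interaction from 5163 to 1587 and 945. Both compounds against vehicle went from 20 to 62 with no filter, 51 at a mean of 50, 156 with DESeq2, 10 with limma-voom, 0 with the compared groups alone, 5 when thinned and 126 without libraries under 100000 counts. Endothelin-1 against sacubitrilat went from 1257 to 638 at a mean of 50, 758 with DESeq2, 472 with limma-voom, 2106 with the compared groups alone, 10 when thinned and 1898 without libraries under 100000 counts. Averaged endothelin-1 went from 205 to 369 with DESeq2, 21 when thinned and 366 without libraries under 100000 counts. Averaged sacubitrilat went from 29 to 68 with no filter, 16 at a mean of 50, 113 with DESeq2, 7 with limma-voom, 0 when thinned and 185 without libraries under 100000 counts.

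With the replicate block, genes called went from 20 to 10 for both compounds against vehicle, from 205 to 121 for averaged endothelin-1 and from 29 to 16 for averaged sacubitrilat. Among members the block ended the calls of GJA1 between endothelin-1 and sacubitrilat (edgeR adjusted p = 0.0608) and of CACNA1C between both compounds and endothelin-1 (edgeR adjusted p = 0.0564) and changed no other. The replicate numbers were not taken to pair the libraries, and correlations that involve libraries of low total cannot exclude a shared batch.

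Leaving out 1 library at a time gave 1450 to 2441 genes for sacubitrilat against vehicle, 0 to 5 members for both compounds against sacubitrilat, 6 to 221 genes for both compounds against vehicle, 1 to 2 members and 681 to 1672 genes for endothelin-1 against sacubitrilat, 110 to 540 genes for averaged endothelin-1, and 0 to 1 members and 9 to 231 genes for averaged sacubitrilat.

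Uncalled log2 values that changed sign were CACNA1G with no filter for both compounds against endothelin-1 (-0.25) and the interaction (-0.14), GJA1 with no filter for both compounds against vehicle (-0.13), ATP1B1 at a mean of 50 for sacubitrilat against vehicle (-0.080), and, with limma-voom, CACNA1G for both compounds against sacubitrilat (0.012) and CACNA1C for both compounds against vehicle (0.26), averaged endothelin-1 (0.16) and averaged sacubitrilat (0.10). With 1 library left out, CACNA1G ran from -0.31 to 0.53 for both compounds against endothelin-1, -0.49 to 0.078 for sacubitrilat against vehicle, -0.72 to 0.12 for both compounds against sacubitrilat, -0.014 to 0.82 for the interaction and -0.30 to 0.12 for averaged sacubitrilat. Both compounds against vehicle ran from -0.37 to 7.09 for KCNH2, -0.88 to 0.52 for CACNA1C, -0.64 to 1.14 for GJA1 and -0.71 to 0.018 for ATP1B1. Averaged endothelin-1 ran from -0.058 to 3.67 for KCNH2, -0.41 to 0.29 for CACNA1C and -0.10 to 0.78 for GJA1, and averaged sacubitrilat from -0.31 to 3.42, -0.48 to 0.23 and -0.54 to 0.35. The shallow vehicle and combined libraries limit each value that rests on them.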

Other observations

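Transcripts that overlap the members were counted as separate genes, though reads of overlapping genes cannot be told apart here. KCNQ1OT1, a long noncoding RNA transcribed antisense within KCNQ1, averaged 300.5 ± 32.7 CPM in the vehicle group, 315 ± 27.1 with endothelin-1, 363 ± 22.8 with sacubitrilat and 344 ± 15.9 in the combined group (SD, n = 3), from 165, 1571, 1653 and 130 counts. It was called in none of the 6 pairwise comparisons (edgeR adjusted p from 0.322 to 0.970), and KCNQ1 itself held 3, 28, 17 and 1 counts in these groups. CACNA1C-IT3, a transcript annotated within an intron of CACNA1C, was lower with endothelin-1 than with vehicle by -1.82 ± 0.40 and with sacubitrilat than with vehicle by -2.11 ± 0.41, and higher under both compounds than with endothelin-1 by 1.89 ± 0.46 (edgeR adjusted p of 7.64e-04, 2.46e-04 and 0.00174, n = 3 per group). Its levels were 57.6 ± 25.4, 12.8 ± 3.49, 11.5 ± 1.14 and 52.7 ± 33.9 CPM in the order above.

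DLG1, a scaffold that binds potassium channels, was lower with endothelin-1 than with vehicle by -1.52 ± 0.23 and higher under both compounds than with endothelin-1 by 1.91 ± 0.25. Averaged over sacubitrilat, KCNN2 was higher with endothelin-1 (1.06 ± 0.25, n = 3 per group, edgeR adjusted p = 0.0161), and TBX18 was lower (-1.57 ± 0.37, edgeR adjusted p = 0.0162). KCNN2 averaged 75.5 CPM with vehicle and 39.6 with endothelin-1, but 18.9 with sacubitrilat and 131 with both compounds. The combined libraries held 43 KCNN2 counts in all, at 29.6 to 263.5 CPM. The KCNN2 interaction was 3.23 ± 0.55 (edgeR adjusted p = 1.04e-05), so the average does not describe cultures without sacubitrilat. TBX18 averaged 25.5, 19.0, 80.7 and 14.4 CPM in the same order.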
